A study of Homo sapiens with 72 samples.

Results

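The genes described here were 8 CC chemokines, CCL2, CCL5, CCL7, CCL8, CCL11, CCL13, CCL20 and CCL26, among 30142 gene names on the array, measured by 10 of its 41000 probes. They were taken as every non-control probe whose gene name in the scanner output was 1 of these 8 symbols. The symbols had been selected on earlier values of the same arrays, the irradiated and bystander log2 ratios to control, with CCL11 lower and CCL2 near its control level on average, so those ratios are given as a description with no p-value, and the calls of members in those contrasts are counted with nothing read from them. The comparison of irradiated with bystander cells did not enter the choice and was tested. Of the 10 probes, 3 passed the filter on low signals, 1 each for CCL2, CCL7 and CCL11, as did 25246 of the 41000 probes.

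Expression was measured in IMR-90 cells, a widely used strain of human lung fibroblasts, on 72 Agilent one-colour whole genome arrays. Irradiated cells grew on thin Mylar and received 0.5 Gy of α-particles, bystander cells shared the dish on Mylar strips thick enough to stop the particles, and control dishes were sham irradiated (0 Gy). RNA was taken 0.5 and 1 hours later and again after 2, 4, 6 and 24, with 4 experiments per group, 24 arrays per treatment and 12 per time. The 3 treatments of an experiment were handled side by side on early passage cells of a shared pool, so all arrays represent 1 strain, and bystander cells lay in the same layer as the hit cells.

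CC chemokines are small secreted proteins that attract leukocytes through G protein-coupled receptors. CCL2 and CCL7 act mainly through CCR2 and draw monocytes, whereas CCL11 (eotaxin) and CCL26 (eotaxin-3) act through CCR3 and draw eosinophils, CCL13 uses both receptors, CCL5 and CCL8 bind several receptors, and CCL20 acts through CCR6 on dendritic cells and lymphocytes. In fibroblasts, CCL2 and CCL20 are known targets of NF-kB, and CCL11 and CCL26 are known targets of the IL4 and IL13 signal that runs through STAT6. In the RefSeq annotation the genes CCL2, CCL7, CCL11, CCL8 and CCL13 lie next to each other in this order on chromosome 17. CCL20 is on chromosome 2 and CCL26 on chromosome 7.

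Each probe was an oligonucleotide of 60 bases, and the accession of all 10 matched the symbol in RefSeq. The first 30 bases of the probes that passed the filter are shown because neighbouring CC chemokines are related in sequence and could share signal. The longest run of bases shared by any of the 45 pairs of the 10 probes was 11, between CCL7 and CCL11, and stands in capitals.
CCL2: gaaattgcttttcctcttgaaccacagttc
CCL7: aacccaAACTCCAAAGCtttgaacattcat
CCL11: cAACTCCAAAGCcataaataatcaccattt

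RefSeq promoter windows (GRCh38.p14) were at hand for 5 of the genes, CCL7, CCL8, CCL13, CCL20 and CCL26, and the 250 bases before the start were searched on both strands for 4 motifs, none of which overlapped another match in these windows. The windows of CCL20 and CCL26, whose mean ratios lay above 0, and of CCL7 from the chromosome 17 cluster are printed with matches in capitals. CCL20 lies at chr2:227813592-227813841 on the plus strand, CCL26 at chr7:75789747-75789996 on the minus strand and CCL7 at chr17:34269971-34270220 on the plus strand.
CCL20: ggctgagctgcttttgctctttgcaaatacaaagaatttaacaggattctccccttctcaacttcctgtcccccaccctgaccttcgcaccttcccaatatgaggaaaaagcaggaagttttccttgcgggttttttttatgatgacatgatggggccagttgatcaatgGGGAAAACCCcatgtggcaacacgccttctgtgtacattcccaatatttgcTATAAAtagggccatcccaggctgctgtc
CCL26: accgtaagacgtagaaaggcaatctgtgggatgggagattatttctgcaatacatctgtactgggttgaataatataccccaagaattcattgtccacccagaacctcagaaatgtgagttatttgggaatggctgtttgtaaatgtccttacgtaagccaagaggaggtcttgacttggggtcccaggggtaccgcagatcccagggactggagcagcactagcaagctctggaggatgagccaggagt
CCL7: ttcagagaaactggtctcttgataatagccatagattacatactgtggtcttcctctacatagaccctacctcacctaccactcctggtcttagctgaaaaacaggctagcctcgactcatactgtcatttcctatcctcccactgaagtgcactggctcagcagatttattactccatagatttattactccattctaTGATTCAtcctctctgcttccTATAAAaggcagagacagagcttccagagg
An NF-kB form, GGGAA followed by any 3 bases and CC, was found once, in CCL20, beginning 80 bases before the start, and is in 6.02% of all 35116 windows of this length. An AP-1 form, TGANTCA, was found in CCL7, 51 bases before the start (6.57% of all windows). A TATAAA box was found in CCL7, CCL8, CCL13 and CCL20 (10.7% of all windows). The STAT6 form, TTC and GAA with any 4 bases between them, present in 5.38% of all windows, was in none of the 5, which says only that these letters are not in these bases.

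Signal above background separated the members. CCL2, spotted 10 times on each array, and CCL7 were well above background on 72 of 72 arrays, and CCL11 on 70 of 72. The 2 arrays without a clear CCL11 signal were the irradiated and the bystander array of experiment 4 at 24 hours. CCL13 was well above background on 63 arrays with probe A_23_P26965 and on 43 with A_24_P125335, and CCL20 on 43. CCL26 was so on 59 arrays with probe A_23_P215484 and on 36 with A_24_P12573. CCL8 was so on 8 arrays and CCL5 on 6, and no member was saturated on any array. The SD over the 10 CCL2 spots of an array had a median of 0.11 on the log2 scale and was at most 0.21, and the other members had 1 spot each. The number of arrays limits the precision of the values below, and low signal limits that of the dim probes as well.

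Arrays of the same group differed between experiments over all probes, and not equally. Over the 18 groups, the SD of the log2 difference between arrays of experiments 1 and 2 had a median of 0.41 on the probes that passed the filter, against 0.60 to 0.75 for the other pairs of experiments. The SD over probes of the irradiated to control log2 ratio had a median over times of 0.40 in experiment 1, 0.47 in experiment 2, 0.59 in experiment 3 and 0.82 in experiment 4. The members are therefore given for each experiment. At 0.5 hours the numbers 3 and 4 are exchanged between the scanner output and the authors' table for all 6 arrays concerned, so experiments 3 and 4 at that time may not be those of the later times. By the scanner numbers, the slide with bystander arrays 3 and 4 also held control and irradiated arrays 3 at 0.5 hours. At every other time that slide held control and irradiated arrays 4. The SD over probes of the irradiated to control ratio at 0.5 hours was 0.82 in experiment 3 and 0.49 in experiment 4. At the later times it ran from 0.35 to 0.62 in experiment 3 and from 0.71 to 0.88 in experiment 4. With numbers 3 and 4 exchanged, the slide layout at 0.5 hours would equal that of the later times, and both SDs would lie within the later ranges. Values given below for experiments 3 and 4 at 0.5 hours may therefore carry each other's number. The numbering was not tested further.

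CCL11, the eosinophil attractant, was several log2 units below its control in experiments 3 and 4 at every time in irradiated and in bystander cells. In experiments 1 and 2 its log2 ratio lay between -0.39 and 0.94 from 1 hour on, highest in bystander cells at 24 hours. At 0.5 hours the scaled log2 level in control cells was 8.53, 8.48, 10.20 and 9.30 in experiments 1 to 4. In irradiated cells it was 7.91, 7.68, 5.63 and 6.54. In bystander cells it was 7.84, 7.85, 5.35 and 6.62. All 4 control values lay above all treated values, and experiment 3 held both the highest control and the lowest treated values. The mean paired log2 ratio was -2.19 ± 1.86 (SD, n = 4) in irradiated and -2.21 ± 1.998 (SD, n = 4) in bystander cells, a level 4.55-fold and 4.64-fold lower. With normexp background correction the bystander mean was -0.89.

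At 4 hours the CCL11 level in control cells was 7.95, 8.49, 9.83 and 10.41. Irradiated cells had 8.33, 8.63, 6.67 and 5.83. In bystander cells it was 8.47, 8.49, 6.34 and 5.85. The groups overlapped here, as at all times but 0.5 hours, because the values of experiments 1 and 2 lay close together in the 3 groups. The mean paired log2 ratio was -1.81 ± 2.46 (SD, n = 4) in irradiated and -1.88 ± 2.52 (SD, n = 4) in bystander cells, with an SD larger than the mean.

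At 24 hours the CCL11 level in control cells was 7.72, 7.08, 9.67 and 10.30. The irradiated level was 8.08, 7.42, 7.43 and 4.29. In bystander cells it was 7.79, 8.02, 6.58 and 3.92. Experiment 4 gave the lowest values, and its irradiated and bystander arrays were both not well above background, so their ratios of -6.00 and -6.38 and the means that hold them are not exact. The mean paired log2 ratio was -1.88 ± 3.003 (SD, n = 4) in irradiated and -2.11 ± 3.33 (SD, n = 4) in bystander cells.

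Over the 6 times the irradiated to control log2 ratio of CCL11 ran from -0.62 to 0.37 in experiment 1, from -0.80 to 0.34 in experiment 2, from -4.56 to -2.24 in experiment 3 and from -6.00 to -2.76 in experiment 4. The bystander ratio ran from -0.69 to 0.52, from -0.64 to 0.94, from -4.85 to -2.70 and from -6.38 to -2.68. Of the 24 single ratios, 16 were below 0 in irradiated and 18 in bystander cells. In control cells themselves CCL11 was higher in experiments 3 and 4 than in experiments 1 and 2 at every time but 2 hours, where experiment 3 (7.97) was the lowest of the 4. Without any 1 experiment the mean irradiated ratio at 0.5 hours lay between -2.71 and -1.39, and at 24 hours between -2.63 and -0.51. Because each sample was bulk RNA of many cells, fewer cells with the transcript and less transcript per cell cannot be told apart.

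**Figure D1:**
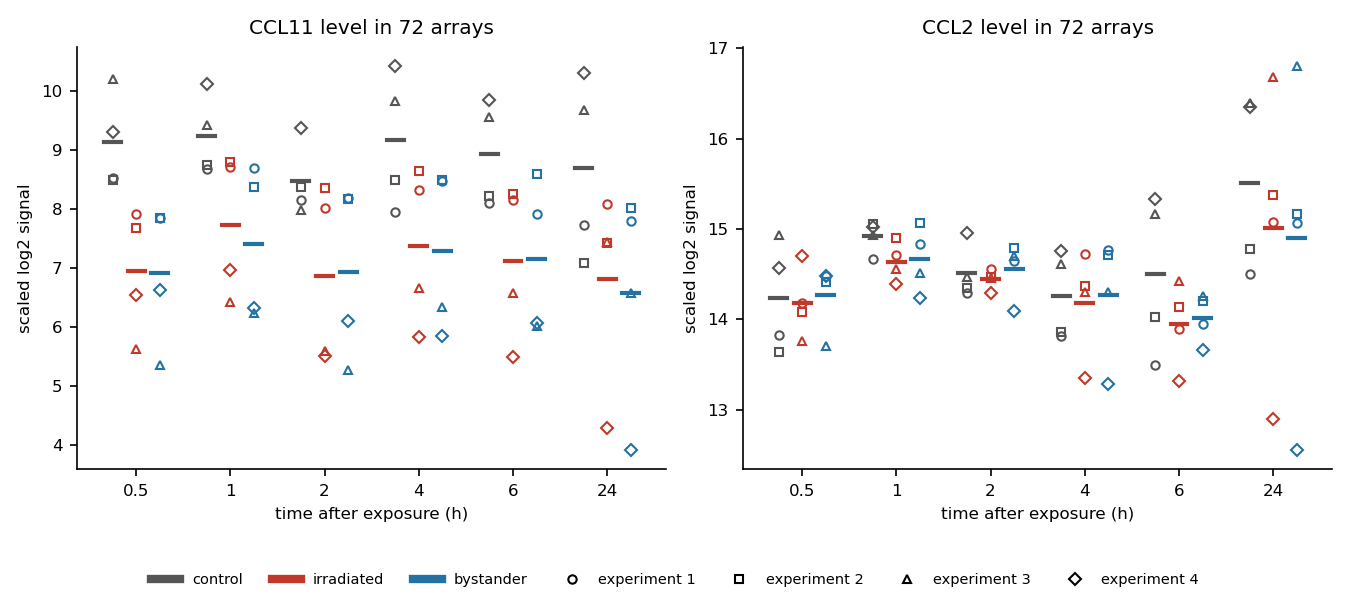
Scaled log2 signal of CCL11 (left) and CCL2 (right) in all 72 arrays against time in hours, by treatment (colour) and experiment (marker), with bars at the means of 4. At 4 hours the CCL11 markers of experiments 3 and 4 sit at 9.83 and 10.41 in control and at 6.67 and 5.83 in irradiated cells, and those of experiments 1 and 2 lie between 7.95 and 8.63 in all groups.

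CCL2, the monocyte attractant, stayed on average near its control level, with the experiments on either side of it. At 4 hours its level in control cells was 13.82, 13.86, 14.61 and 14.75. After irradiation it was 14.72, 14.37, 14.30 and 13.35. In bystander cells it was 14.77, 14.71, 14.31 and 13.28. The groups overlapped, with experiment 1 higher and experiment 4 lower than its control. The mean paired log2 ratio was -0.07 ± 1.02 (SD, n = 4) in irradiated and 0.00 ± 1.14 (SD, n = 4) in bystander cells.

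The means of CCL2 over the 6 times lay between -0.56 and -0.06 in irradiated and between -0.61 and 0.04 in bystander cells. In experiment 1 its log2 ratio was above 0 at all 6 times in both treatments, at most 0.91 in irradiated and 0.95 in bystander cells. In experiment 4 it was below 0 at 5 of 6 times in irradiated and at 6 of 6 in bystander cells. The exception, 0.13 at 0.5 hours, belongs to experiment 3 by the authors' numbers. At 24 hours the ratio in irradiated cells was 0.58, 0.59, 0.29 and -3.44, and the mean of -0.50 ± 1.97 (SD, n = 4) takes its sign from experiment 4. The CCL2 level of experiment 4 at 24 hours was 16.35 in control, 12.90 in irradiated and 12.56 in bystander cells.

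CCL7, the neighbour of CCL2 and also a monocyte attractant, had means between -0.51 and 0.13 in irradiated and between -0.50 and 0.60 in bystander cells. At 4 hours its irradiated to control ratio was 0.61, 1.11, 0.18 and -1.38 and its bystander ratio was 1.44, 1.46, 0.85 and -1.34. At 24 hours these ratios were 1.18, 0.84, 0.24 and -4.28 in irradiated and 1.30, 1.37, 0.30 and -4.96 in bystander cells. Experiments 1 to 3 lay above 0 and experiment 4 below it at both times and in both treatments. At 2 hours the irradiated ratio was below 0 in 4 of 4 experiments, with a mean of -0.46 ± 0.30 (SD, n = 4), and without scaling of the arrays this mean was -0.84.

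The change of CCL2 minus that of CCL11, taken within the same pairs of arrays and so free of the scaling factor of the array where no value was at the floor, was above 0 in 23 of 24 irradiated and 22 of 24 bystander values. In irradiated cells it ran over the times from 0.01 to 0.97 in experiment 1, from -0.21 to 1.24 in experiment 2, from 2.24 to 3.39 in experiment 3 and from 2.34 to 3.19 in experiment 4. In bystander cells the ranges were 0.16 to 1.34, -0.56 to 1.41, 2.63 to 3.61 and 2.11 to 3.09. The size again divided the experiments. At 24 hours the values of experiment 4 rest on CCL11 signals not well above background. The mean was highest at 0.5 hours, 2.12 ± 1.20 (SD, n = 4) in irradiated and 2.24 ± 1.08 (SD, n = 4) in bystander cells. CCL2 and CCL11 were chosen for this contrast, so the sign is a description. With normexp background correction the bystander mean at 0.5 hours was 0.71.

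**Figure D2:**
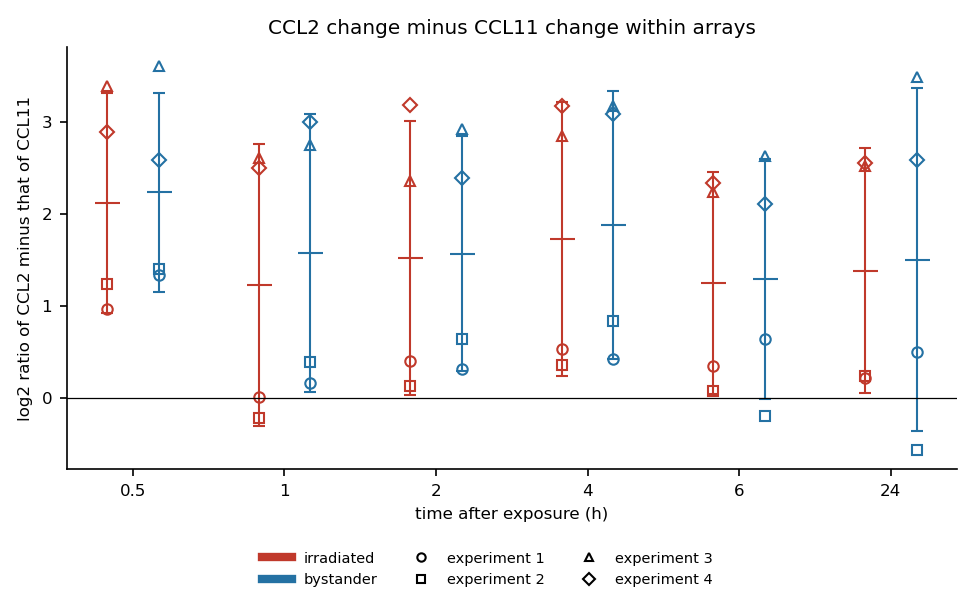
Log2 ratio to control of CCL2 minus that of CCL11 (y axis) against time in hours for irradiated and bystander cells, with markers for the 4 experiments and bars for mean ± SD. Experiments 3 and 4 lie between 2.11 and 3.61 at all times, and experiments 1 and 2 between -0.56 and 1.41.

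CCL13 followed CCL11 in sign in experiments 3 and 4 until 6 hours with probe A_23_P26965, at lower signal. At 4 hours its level with this probe was 6.59, 6.23, 6.48 and 6.39 in control, 7.11, 6.21, 4.34 and 4.82 in irradiated and 6.31, 6.45, 4.31 and 5.02 in bystander cells. The groups overlapped through experiments 1 and 2. Its mean ratio over the times lay between -0.85 and -0.35 in irradiated and between -0.98 and -0.61 in bystander cells. The second probe, A_24_P125335, gave means between -1.46 and 0.08 and between -1.45 and -0.35. At 24 hours experiment 3 was at 0.54 in irradiated cells and experiment 4 at -2.51 with the first probe. With normexp background correction the bystander mean at 0.5 hours turned from -0.61 to 0.93 with the first and from -0.85 to 1.00 with the second probe, so the direction of CCL13 at that time rests on the background step.

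CCL20 and CCL26 were higher in irradiated and bystander cells, with the largest means at 0.5 hours and higher means at 4 and 6 hours than at 1 and 2 hours. For CCL20, the CCR6 ligand, the level at 0.5 hours was 2.32, 2.32, 3.38 and 2.43 in control cells, none of them well above background. In irradiated cells it was 8.52, 8.73, 6.75 and 5.02, and all 4 arrays were well above background. In bystander cells it was 8.88, 8.75, 7.16 and 3.57, and 3 of 4 arrays were. No irradiated value overlapped the controls, and experiment 4 was the lowest in both treatments. The bystander value of experiment 4 and the controls were dim and have no order. With a stand-in for the dim controls, CCL20 was 18.4-fold higher in irradiated cells at 0.5 hours. For each control array this takes the lowest signal well above background on that array or its own, whichever was higher. On the same basis CCL20 was 16.4-fold higher in bystander cells, where the dim array of experiment 4 enters at its own signal. Neither these values nor those below on this basis are lower bounds, because a dim spot can exceed the stand-in. The stand-in averaged 3.06 here, whereas CCL8 in irradiated cells at 24 hours reached 4.95 with no array well above background.

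Leaving out 1 experiment moved the mean log2 ratio of CCL20 at 0.5 hours to between 4.05 (without experiment 2) and 5.32 (without 4) in irradiated and between 3.78 (without 1) and 5.59 (without 4) in bystander cells. At 6 hours CCL20 was again not well above background in any control, and was so on 3 of 4 irradiated and 3 of 4 bystander arrays. On the same basis as at 0.5 hours it was 8.08-fold higher in irradiated and 6.23-fold higher in bystander cells. These values are no lower bounds either, and the dim treated array enters at its own signal. At 1 hour the level in control cells was 5.89, 6.00, 2.57 and 3.94, and the irradiated ratio of -0.27, -0.86, 1.47 and 3.70 had both signs. At 24 hours experiment 3 stood apart in all groups, with a CCL20 level of 11.06 in control, 12.96 in irradiated and 12.67 in bystander cells, where no other array of that time exceeded 5.67. The log2 ratios of experiment 3 at 24 hours were 1.90 and 1.61, within those of the other experiments. Under normexp background correction the mean irradiated log2 ratio of CCL20 at 0.5 hours was 1.95 in place of 4.64, the direction being kept.

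For CCL26, the CCR3 ligand outside the chromosome 17 cluster, the probe A_23_P215484 gave at 0.5 hours a level of 2.32, 3.69, 4.75 and 4.88 in control cells, 2 of them well above background. The irradiated values were 9.82, 9.74, 6.96 and 5.60. In bystander cells it was 9.70, 9.87, 6.89 and 3.83. Irradiated and control values did not overlap, whereas the bystander value of experiment 4 lay within the controls. The mean paired log2 ratio was 4.12 ± 3.18 (SD, n = 4) in irradiated and 3.66 ± 3.85 (SD, n = 4) in bystander cells. It is not exact, because the dim controls, 1 of them at the floor, have no exact level.

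The second CCL26 probe, A_24_P12573, was not well above background in any control array from 0.5 to 6 hours. By the stand-in used for CCL20, CCL26 in irradiated cells was 16.7-fold higher after 0.5 hours, 2.77-fold after 1 and 7.70-fold after 6. None of these is a lower bound. After 4 hours the value was 4.41-fold, with only 3 of 4 irradiated arrays well above background. At 2 hours 1 of 4 irradiated arrays was well above background, so no value is given. In bystander cells this probe was 6.48-fold higher at 6 hours on this basis. At 0.5 hours it was 11.3-fold higher, with experiment 4 at the floor. The log2 ratios of this probe at 0.5 hours were 7.06, 6.78, 3.01 and 1.31 in irradiated and 6.90, 6.86, 3.54 and -1.37 in bystander cells. Leaving out 1 experiment moved their means to between 3.70 (without experiment 1) and 5.62 (without 4) in irradiated and between 3.01 (without 1) and 5.76 (without 4) in bystander cells. Both probes had all 24 irradiated ratios above 0 and 22 of 24 bystander ratios above 0. In experiments 1 and 2 CCL26 was at its highest ratio at 0.5 hours with both probes in both treatments, while in experiment 3 the ratio of A_23_P215484 in irradiated cells ran only from 0.67 to 2.20. Under normexp background correction the mean irradiated log2 ratio of A_24_P12573 at 6 hours was 1.29 in place of 3.72.

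The mean ratios of the eotaxins had opposite signs, CCL26 above 0 and CCL11 below it, but through different experiments. At 0.5, 4 and 6 hours CCL26 was higher in experiments 1 and 2 than in experiments 3 and 4 with both probes and in both treatments, and CCL11 was lowest against its control in experiments 3 and 4. At 1, 2 and 24 hours the CCL26 ratios of irradiated cells did not divide the experiments in this way.

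**Figure D3:**
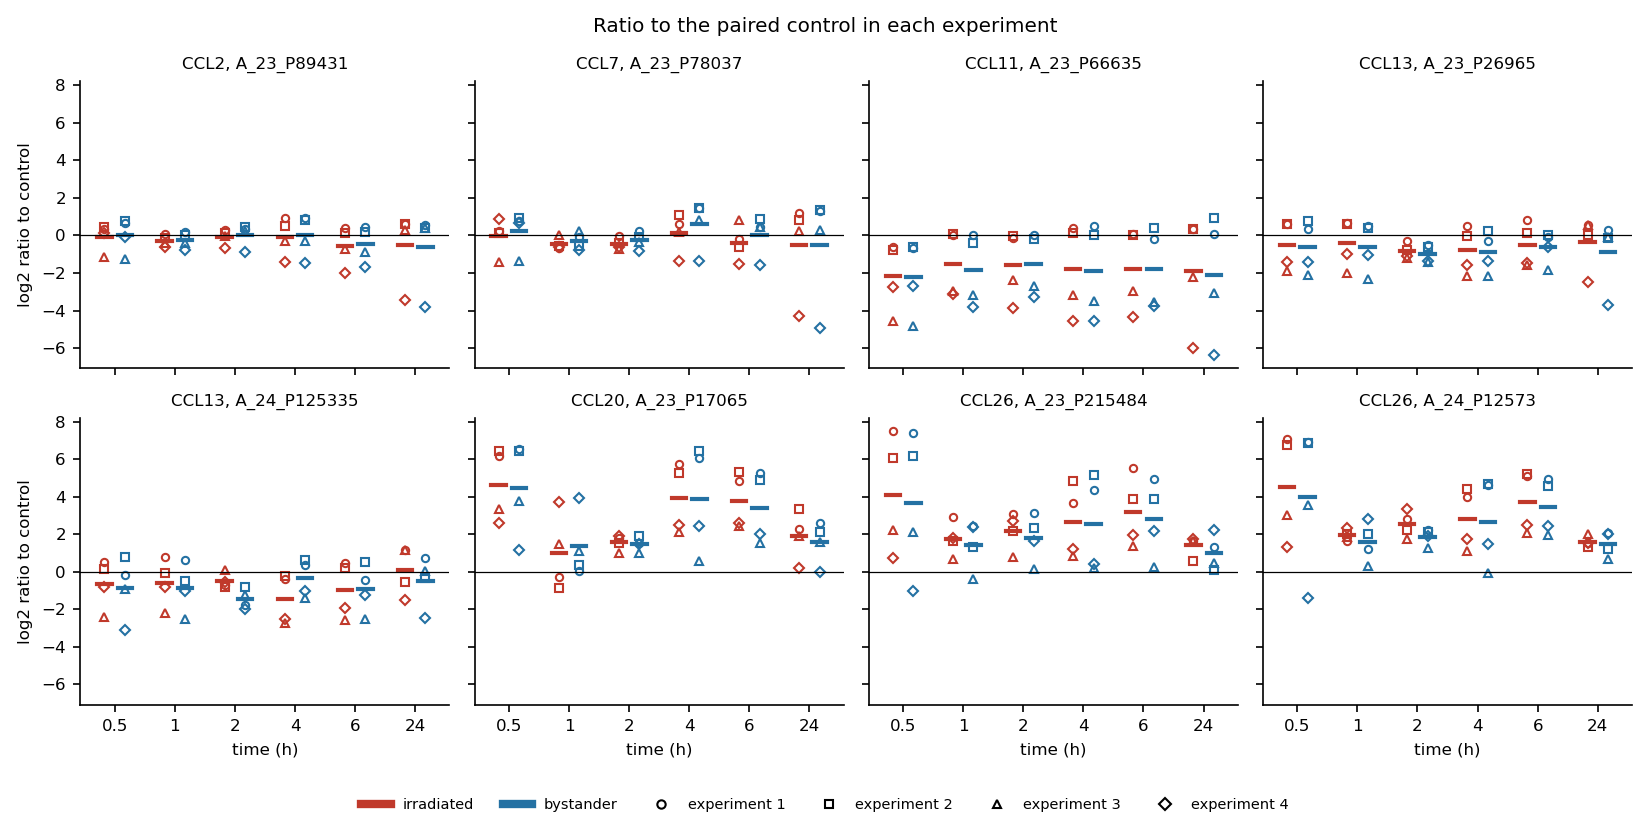
Paired log2 ratio to control (y axis) against time in hours for the 8 probes well above background on at least 36 arrays, in irradiated and bystander cells, with markers for the 4 experiments and bars for the means. CCL20 and CCL26 lie mostly above 0, up to 7.50, and CCL11 lies below 0 in experiments 3 and 4, down to -6.38.

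CCL5 and CCL8 could not be followed. CCL5, a T cell attractant, was well above background on 1 control, 2 irradiated and 3 bystander arrays, with a highest level of 5.91 in irradiated cells of experiment 4 at 4 hours. CCL8, a monocyte attractant between CCL11 and CCL13 in the cluster, was so on 1 control, 3 irradiated and 4 bystander arrays, with a highest level of 6.72 in bystander cells of experiment 2 at 2 hours. No group had more than 2 of 4 arrays well above background for either gene, and no ratio is given.

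In the limma fit over all 25246 probes (adjusted p below 0.10), 1 of the 3 member probes tested was called in irradiated against control cells at 0.5 hours, CCL11, where 9.9% of all probes were called. At the later times none of the 3 was called. The shares of all probes called at 1, 2, 4, 6 and 24 hours were 0% (6806 probes had an unadjusted p below 0.05), 5.78%, 1%, 10.5% and 0.174%. In bystander against control cells CCL11 was again the 1 member called, at 0.5 hours, where 7.01% of all probes were called. Over the same later times the shares were 0% (3631 probes with an unadjusted p below 0.05), 0.214%, 0.578%, 0.289% and 0% (2820 such probes), with none of the 3 members called. These contrasts chose the members, so the counts carry no weight of their own. Neither CCL11 call was made without experiment 1, 2 or 3 in the irradiated comparison, nor without experiment 1, 2, 3 or 4 in the bystander comparison. With slide and experiment as blocks, both calls at 0.5 hours were also lost.

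Irradiated and bystander cells were then compared directly, which the choice of members had not used. No member probe was called at any time by limma, at adjusted p values from 0.94 upward for CCL2, CCL7 and CCL11. Of all probes 0% were called at 0.5, 1, 6 and 24 hours, with 541, 1251, 381 and 101 probes at an unadjusted p below 0.05, and 0.0436% at 2 hours and 0.00792% at 4 hours. At 2 and 4 hours 284 and 326 probes had an unadjusted p below 0.05. None of the 3 member probes had an unadjusted p below 0.05 at any time. The fit takes its spread from all 3 groups, controls included, and the SE of CCL11 at 0.5 hours was 0.61. The absence of calls therefore does not show that irradiated and bystander cells were alike. Over all probes the SD of this difference had medians from 0.28 in experiment 1 to 0.35 in experiment 4.

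For CCL11 the irradiated to bystander log2 difference was 0.03 at 0.5 hours (95% interval -1.32 to 1.37), 0.08 at 4 hours (-1.58 to 1.73) and 0.23 at 24 hours (-2.04 to 2.50). Its values in the 4 experiments at 0.5 hours were 0.07, -0.16, 0.28 and -0.08. With normexp the value at 0.5 hours was -0.73, and at 4 hours it was -0.43 without scaling and -0.26 with slide as the only block. At 1 hour the CCL11 difference was 0.32 (-0.96 to 1.61), above 0 in 4 of 4 experiments. The intervals rest on the spread of the 3 groups together while the SD of the 4 paired differences at 0.5 hours was 0.20. For CCL2 the difference was -0.09 at 0.5 hours (-0.72 to 0.54) and 0.11 at 24 hours (-1.36 to 1.58). For CCL7 it was -0.47 at 4 hours (-1.32 to 0.38), below 0 in 4 of 4 experiments, and over all times 18 of 24 single values of CCL7 were below 0. Among the 7 probes that had not passed the filter, fitted with all probes, adjusted p values were from 0.88 upward, and at 2 hours the CCL13 probe A_24_P125335, with the 1 interval of these that did not include 0, was well above background on 0 of 4 bystander and 1 of 4 irradiated arrays, so that no difference is read from it. For CCL20 the difference at 0.5 hours was 0.16 (-2.002 to 2.328) and for CCL26 with A_23_P215484 it was 0.46 (-2.83 to 3.74).

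**Figure D4:**
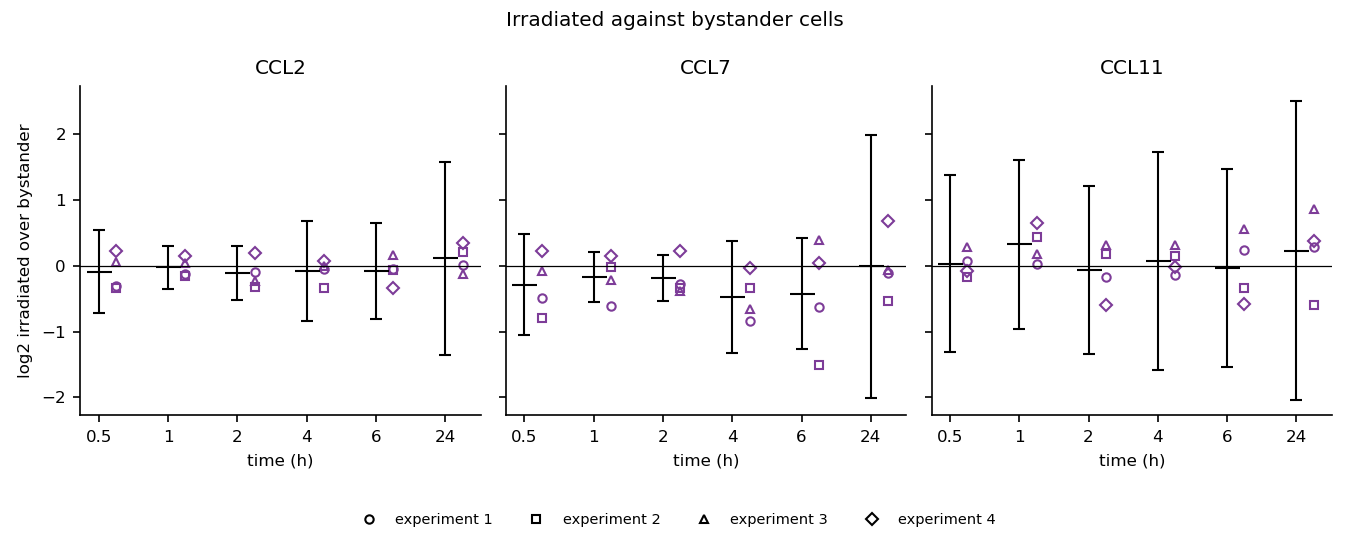
Log2 difference of irradiated against bystander cells (y axis) for CCL2, CCL7 and CCL11 against time in hours, with the limma estimate and its 95% interval (black) and the 4 experiments (markers). All intervals include 0, and the markers of CCL11 lie between -0.60 and 0.86.

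The genes whose 48 paired ratios (2 treatments, 6 times and 4 experiments) were most like those of CCL11 were SCN4B, a sodium channel subunit (Pearson r = 0.95 over 48 ratios), DAAM2, a formin (0.94), DENND2D (0.93), TMEM159 (0.93) and COLEC11, a collectin (0.93). SCN4B at 4 hours had irradiated ratios of 0.02, -0.06, -1.22 and -2.39 in experiments 1 to 4, the same order of experiments as CCL11 over a smaller range. Those most like CCL2 were CH25H, the cholesterol 25-hydroxylase (0.93), CD302 (0.92), AKR1C1, an aldo-keto reductase (0.92), CGNL1 (0.92) and RSPO3, a secreted Wnt agonist (0.91). CH25H at 24 hours had irradiated ratios of 1.24, 0.64, 0.38 and -2.90. Between the members r was 0.89 for CCL2 with CCL7, 0.85 for CCL2 with CCL11 and 0.69 for CCL7 with CCL11. Irradiated and bystander ratios share their control arrays and times share experiments, so these values are descriptions.

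Of 20 other CC chemokine genes looked for, 16 were on the array with 19 probes, of which 3 passed the filter, those for CCL21, CCL24 and CCL27. CCL24, the remaining eotaxin, was well above background on 72 arrays and was called once, lower in irradiated cells at 6 hours by 1.76 ± 0.45 (SE) on the log2 scale (limma, adjusted p = 0.061), and its bystander difference at that time was -0.78 (adjusted p = 0.43). The median over the 3 probes was between -0.36 and 0.28 in the 12 comparisons with control, where the median of all probes was between -0.06 and 0.02. Of 17 receptor genes, 14 were on the array with 21 probes and 5 passed. CCRL1, a scavenging receptor, rose by 0.98 ± 0.25 (SE) in bystander cells at 0.5 hours (limma, adjusted p = 0.072). Over the 12 comparisons with control, 1 receptor probe was called higher, in bystander cells at 0.5 hours, and 1 lower, in irradiated cells at 6 hours. Of all probes 7.01% and 10.5% were called in these 2 comparisons. CCR2, the receptor of CCL2, was well above background on at most 2 arrays with any of its 3 probes, and CCR6, the receptor of CCL20, on 0 of 72. CCR3, the eotaxin receptor, was well above background on 68 arrays with 1 probe, A_24_P367473, and on 1 and 0 arrays with its other probes, and was not called.

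In the IL4, IL13 and STAT6 arm, 15 of 20 probes passed the filter, for 9 of 12 genes. IL13RA2, the decoy receptor of IL13, rose by 1.32 ± 0.29 (SE) in irradiated and 1.45 ± 0.29 (SE) in bystander cells at 0.5 hours (limma, adjusted p = 0.045 and 0.037), and was also called higher in both at 4 hours and in irradiated cells at 6 and 24 hours. SOCS1, an inhibitor of STAT signalling, fell at 0.5 hours in both treatments with both of its probes, by 1.00 ± 0.27 (SE) in irradiated cells with the first (adjusted p = 0.071). SOCS3 was called lower in irradiated cells at 6 hours with 1 of 2 probes, by 1.07 ± 0.27 (SE) (adjusted p = 0.059). The median over the arm lay between -0.32 and -0.08. IL13 itself was well above background on 0 of 72 arrays and IL4 on 6.

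In the IL1, TNF and NF-kB arm, 21 of 23 probes passed, for 17 of 18 genes. At 0.5 hours 7 probes were called higher and 4 lower in irradiated cells, and 8 higher and 2 lower in bystander cells. TNFAIP3, an inhibitor of NF-kB, rose by 1.95 ± 0.17 (SE) in irradiated and 1.87 ± 0.17 (SE) in bystander cells with its probe A_24_P157926 (limma, adjusted p = 0.0049 and 0.0040), and BIRC3, an inhibitor of apoptosis, rose by 2.05 ± 0.30 (SE) in irradiated cells (adjusted p = 0.023). NFKBIZ, REL, RELB and NFKBIA were also called higher in both treatments at 0.5 hours, while TNFRSF1A, the TNF receptor, and MYD88, an adaptor, were lower, by 0.97 ± 0.27 (SE) for TNFRSF1A in irradiated cells. In irradiated cells 2 were called higher and 3 lower at 2 hours, 5 and 0 at 4 hours, and 3 and 5 at 6 hours, where TNFRSF1A, MYD88, IL1R1 and RELA were lower. In bystander cells 6 were called higher and 0 lower at 4 hours, and none at the remaining times in either treatment. The shares of all probes called in these comparisons, as in those of the other lists, are those given above. The median over the arm at 0.5 hours was 0.07 in irradiated cells, against -0.03 over all probes.

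In the interferon arm 14 of 24 probes passed, and 1 was called higher (IFNGR1, an interferon receptor chain) and 2 lower (IRF1 and IRF9, transcription factors) in irradiated cells at 0.5 hours. IFNGR1 was also called higher in bystander cells at 0.5 hours, IFNAR1 was called higher in irradiated cells at 2 and 6 hours, and ISG15 lower in irradiated cells at 6 hours. IRF1 fell by 0.93 ± 0.19 (SE) in irradiated cells at 4 hours (limma, adjusted p = 0.061) and in bystander cells by 0.93 ± 0.19 (SE) (adjusted p = 0.082). Among 7 proteases known to cut CC chemokines 5 passed, and MMP1 and MMP3 rose at 0.5, 4 and 6 hours in both treatments. MMP3 rose by 2.93 ± 0.46 (SE) in irradiated cells at 0.5 hours (adjusted p = 0.025) and by 2.31 ± 0.22 (SE) at 4 hours (adjusted p = 0.0021). DPP4, the peptidase that trims CCL11, was not called in any comparison, and MMP2 was called lower in irradiated cells at 2 and 6 hours. These lists were drawn up with earlier results of the same arrays known.

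All 19 probes of the 12 fibroblast markers were well above background on all 72 arrays. Their summed log2 level had a median of 20.4 in control, 20.2 in irradiated and 20.1 in bystander arrays, with overlapping ranges, and the difference was not tested. The median log2 difference over the 19 probes lay between -0.48 and -0.17 in the 12 comparisons with control, below that of all probes (-0.06 to 0.02) in each. Their brightest probe was 1 for COL1A2, which does not rank the transcripts. THY1 fell by 1.07 ± 0.24 (SE) in irradiated and 1.10 ± 0.24 (SE) in bystander cells at 0.5 hours (limma, adjusted p = 0.045 and 0.046), where CCL11 was also lower. PDGFRB was called lower in bystander cells at 0.5 hours and in irradiated cells at 2 and 6 hours, and FAP was called higher in irradiated cells at 2 and 6 hours. Of the leukocyte markers 2 of 10 probes passed the filter and none was called. The summed leukocyte level had medians of 8.92, 8.89 and 9.01 in control, irradiated and bystander arrays, with CD14 the brightest probe. Of the 10 leukocyte probes 3 (CD14, ITGAM and 1 of 2 for CD3E) were well above background on all 72 arrays, CSF1R was so on 56, PTPRC on at most 4 and LYZ on 0. None of 3 endothelial probes that passed was called, with summed medians of 13.0, 13.0 and 13.1 and TEK the brightest probe. TEK, VWF and KDR were well above background on all 72 arrays with 1 probe each, CDH5 on 12 and PECAM1 on 2. Of 5 epithelial probes that passed, 1 for SFTPC was lower in irradiated cells at 0.5 hours, by 0.86 ± 0.16 (SE) (adjusted p = 0.032), with summed medians of 9.81, 9.69 and 9.82. The brightest of them was the second probe for SFTPC. Well above background on all 72 arrays were 5 of 9 epithelial probes, those for SCGB1A1, KRT19 and SFTPC and 1 of 2 for KRT14, whereas EPCAM was so on 44, CDH1 on 10 and KRT5 on 1. The part of these markers in the chemokine values was not tested.

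The 12 arrays of each time lay on 3 slides of 4, every slide held all 3 groups, and each slide was scanned within 1 scan day. Within slides, the irradiated to control log2 difference of CCL11 at 4 hours was 0.11, -2.18 and -4.58 on the 3 slides. Slides mix experiments, so that only 3 of 4 irradiated and 2 of 4 bystander arrays share a slide with their control. Over all times 16 of 18 slides had it below 0 in irradiated and 15 of 18 in bystander cells. With slide and experiment as blocks the CCL11 difference at 0.5 hours was -2.68 in irradiated and -2.73 in bystander cells, and neither was called. For CCL26 with A_24_P12573 the within-slide difference was above 0 on 18 of 18 slides in irradiated and 17 of 18 in bystander cells. For CCL20 it ranged from -1.75 to 6.19 in irradiated and from -6.60 to 6.56 in bystander cells, the lowest of both on the slide that held the control array of experiment 3 at 24 hours.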

How the data were processed

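Expression was measured in 72 arrays. For each spot the authors deposited a processed intensity from Feature Extraction 9.1.3.1, which is background-subtracted and corrected for spatial trends, with no scaling between arrays. Their deposited table of log2 values served as an alternative and matched the scanner values of 66 arrays to 0.001. Here each array was scaled to a common 75th percentile, floored at an intensity of 5, and taken to log2. Non-uniform spots were left out and spots of a probe averaged. Dim values have no order at the floor, 2.32 on the log2 scale. A probe was kept where a dim or non-uniform spot occurred on at most 10% of arrays, which left 25246 probes. The 75th percentile before scaling ran from 9.19 to 11.20 on the log2 scale, and 65.7% to 76.9% of spots were well above background.

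Arrays were grouped by the treatment and time in their titles. For each time, limma 3.58.1 in R 4.3.3 was fitted to 12 arrays with treatment and experiment (the replicate number) as terms, with a trended variance and 6 residual degrees of freedom. Calls were made at a Benjamini-Hochberg adjusted p below 0.10 over all probes tested. The pairing comes from the methods, which state that the 3 treatments of an experiment were run in parallel. In the data, same-numbered arrays deviated together with a correlation above 0.1 in all 12 pairs of each time, except at 4 and 6 hours, where 10 pairs passed. Changed settings were no scaling, quantile normalization, normexp with an offset of 50, the authors' values, no filter, other blocks, 1 fit of 72 arrays and each experiment left out.

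The members and gene lists were chosen with earlier results of these data known. Named genes were all member probes, the 5 genes most like CCL2 and the 5 most like CCL11 by Pearson correlation of 48 paired ratios, and list genes with a called probe or needed to account for a list. A result for 1 listed gene is not reported here. Promoter windows came from RefSeq with GRCh38.p14, and RefSeq gave gene order and symbols.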

Additional observations from a re-analysis of the deposited data

Results flagged for a closer look

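Of 144 groups of 4 paired log2 ratios, those of the 8 probes well above background on at least 36 arrays in 3 comparisons at 6 times, 9 held an experiment far from the other 3 by Dixon's 95% limit, where chance gives about 1 in 20. Of these, 5 were experiment 4 against control, 4 of them at 24 hours. CCL2 in irradiated cells at 24 hours was -3.44 in experiment 4, against 0.29 to 0.59 in the others. CCL2 in bystander cells was -3.79 at 24 hours, against 0.38 to 0.57, and -0.86 at 2 hours, against 0.23 to 0.44. CCL7 in bystander cells at 24 hours was -4.96, against 0.30 to 1.37. CCL13 with probe A_23_P26965 in bystander cells at 24 hours was -3.69, against -0.14 to 0.29.

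The other 4 were spread over experiments by the scanner numbers, and those at 0.5 hours exchange experiments 3 and 4 by the authors' numbers. CCL7 in bystander cells at 0.5 hours was -1.34 in experiment 3, against 0.65 to 0.92. CCL26 with A_23_P215484 in irradiated cells at 24 hours was 0.60 in experiment 2, against 1.64 to 1.76, and its irradiated to bystander difference at 0.5 hours was 1.76 in experiment 4, against -0.13 to 0.13. CCL13 with A_23_P26965 had an irradiated to bystander difference at 2 hours of -0.16 in experiment 2, against 0.20 to 0.25.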

How the results depend on the processing

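The number of member probes called over the 6 times was 1 in irradiated against control and 1 in bystander against control cells. In irradiated cells it was 7 without scaling, 2 with the authors' values, 4 without the filter (CCL20 and CCL26 at 2 and 6 hours), 0 with slide as the only block and 0 in 1 fit over 72 arrays. In bystander cells these were 3, 1, 2 (CCL20 and CCL26 at 2 hours), 0 and 0, and it was 0 with normexp. Leaving out 1 experiment gave 0 to 1 in irradiated and 0 to 2 in bystander cells. Without the replicate block it was 0 in both. With slide and replicate as blocks it was 1 (CCL11 at 6 hours, where 2350 probes in all were called) and 0. Without scaling 6923 and 4450 probes in all were called in irradiated cells at 2 and 6 hours, against 1460 and 2660 with it. At 0.5 hours they were 206 in irradiated cells, against 2499, and at 4 hours 3726 in bystander cells, against 146. Without the filter 937 and 595 probes in all were called in irradiated cells at 2 and 6 hours, and 159 in bystander cells at 2 hours. Over all probes and 18 comparisons there were 8973 calls, against 7666 with normexp, 9389 with the authors' values and 10167 with quantile normalization. The total was 117 without the replicate block, 387 with slide as the only block, 3912 with both and 2959 without the filter. It was 15853 without scaling and 16501 in 1 fit. Leaving out an experiment gave 1357 without experiment 1, 1634 without 2, 5023 without 3 and 9450 without 4. Without experiment 4, 4916 probes in irradiated and 3116 in bystander cells were called at 2 hours, against 1460 and 54. Irradiated against bystander gave 0 member calls in every setting run.

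The CCL2 minus CCL11 means kept their sign in all settings run. The bystander mean at 0.5 hours moved from 2.24 to 0.71 with normexp, and the cause was not tested. Leaving out 1 experiment, the lowest and highest means were 0.77 (irradiated, 1 hour) and 2.54 (bystander, 0.5 hours). Of the member ratios to control, 27 of the values with normexp and 4 without scaling moved by more than their SD.

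The irradiated to bystander differences of CCL2, CCL7 and CCL11 lay between -0.47 (CCL7 at 4 hours) and 0.32 (CCL11 at 1 hour) and some changed sign. For CCL2 they became 0.021 without scaling and 0.12 with normexp at 0.5 hours, 0.02 without scaling at 1 hour, 0.069 with normexp at 2 hours, and -0.12 without scaling and -0.22 with slide as the only block at 24 hours. For CCL7 at 24 hours the value was 0.23 with slide and replicate blocks. For CCL11 they became -0.73 with normexp and -0.21 with slide as the only block at 0.5 hours, 0.031 with normexp at 6 hours, and -0.0030 without scaling and -0.25 with the slide block at 24 hours. At 4 hours CCL11 was at -0.43 without scaling, -0.012 with the authors' values, -0.26 with the slide block and -0.13 with slide and replicate blocks. Leaving out 1 experiment, the ranges were for CCL2 -0.083 to 0.022 at 1 hour, -0.13 to 0.0070 at 4 hours and -0.16 to 0.015 at 6 hours, for CCL7 -0.24 to 0.17 at 24 hours, and for CCL11 -0.057 to 0.092 at 0.5 hours, -0.19 to 0.11 at 2 hours, -0.0050 to 0.15 at 4 hours and -0.23 to 0.15 at 6 hours.

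Signal over background limits CCL5, CCL8, CCL20 and CCL26, whose control values were mostly dim. The 4 experiments differed among themselves, which limits every mean.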
